A study of Mus musculus with 24 samples.

Results

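The BORC, ARL8 and lysosome positioning genes were examined as a set of 10 genes, *Arl8a*, *Arl8b*, *Bloc1s1*, *Bloc1s2*, *Snapin*, *Kxd1*, *Borcs5*, *Plekhm1*, *Plekhm2* and *Rab7*. They were picked by name, for what their proteins do, but with earlier results of these data known. The counts of members called below are therefore descriptions and no independent support. Each gene matched 1 row of the 55487 genes in the gene table. All 10 passed the filter on low counts and were among the 15401 genes tested. BORC, ARL8, PLEKHM1, PLEKHM2 and RAB7 are the names of the proteins.

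Lysosomes travel along microtubules, outward to the cell edge on kinesins and inward to the nucleus on dynein. BORC is a complex of small subunits on the lysosome that brings the small GTPases of the ARL8 family to its membrane, and ARL8 then binds PLEKHM2 (also called SKIP), which couples the lysosome to kinesin. RAB7, the small GTPase of late endosomes and lysosomes, recruits both dynein adaptors and, together with ARL8, the tethering adaptor PLEKHM1, which helps lysosomes fuse with autophagosomes and endosomes. TFEB and TFE3 are transcription factors that MTORC1 holds in the cytoplasm of fed cells and that switch on lysosomal and autophagy genes when they enter the nucleus.

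mRNA was measured in MEFs, mouse embryonic fibroblasts, either wild type (WT) or carrying the Tfeb/Tfe3 KO (*tfeb tfe3* DKO, hereafter DKO). Cells of each genotype received vehicle (DMSO), torin1, which inhibits the MTOR kinase, or MK-8722, which activates AMPK directly. Each of the 6 groups had 4 libraries, and the labels give neither doses nor durations. WT and DKO MEFs were each a line supplied by another laboratory and sampled at several passages, so what belongs to the knockout and what belongs to the line cannot be told apart, and p-values measure the spread between cultures of 1 line. The labels name no other allele or agent, and the comparisons of both drugs within a genotype share that genotype's DMSO libraries.

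Library totals ranged from 24668921 to 33332562 estimated counts. The fibroblast markers *Vim* (2611 to 4820 TPM, a level per transcript length), *Fn1* (283 to 902 TPM), *Col1a1* (217 to 903 TPM) and *Col1a2* (70.75 to 446 TPM) were high in every library. Other fibroblast markers were lower, with *Pdgfrb* at 8.51 to 22.15 TPM, *Col3a1* at 3.57 to 31.2 TPM and *Pdgfra* at 1.21 to 54.8 TPM. *Thy1* reached 6.14 TPM at most and was listed at 0 in the lowest. *Epcam*, *Cdh1*, *Ptprc*, *Pecam1*, *Cdh5* and *Myod1*, markers of other cell types, stayed at or below 1.02 TPM. *Tfeb* fell from a mean of 22.9 CPM in WT under DMSO to 2.25 CPM in DKO, whereas *Tfe3* mRNA stood at 120.2 and 123.6 CPM, so the *Tfe3* count does not check its knockout. The 3 WT libraries of passage 11 and the 3 DKO libraries of passage 8 lay farthest from their groups, with a median absolute log2 difference over all genes of 0.115 to 0.118 and 0.0989 to 0.126, compared to 0.0786 to 0.11 in the other 18. One DKO library under MK-8722, replicate 3, had an RNA integrity number of 7.9, compared to 9.7 to 9.9 in the others.

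In the following, CPM is the read count scaled to library size after TMM normalisation. A gene was called higher or lower when edgeR's quasi-likelihood test gave a Benjamini-Hochberg adjusted p under 0.05 over all genes tested and the fold change was at least 1.2. A member that was not called may still have had an adjusted p under 0.05 with a smaller fold change. Such values are given as values, though not for every comparison. Groups without overlap were common among all genes tested. For torin1 against DMSO they made 54.1% of genes in WT and 52.8% in DKO, and for MK-8722 29.8% and 21.1%. Between genotypes they made 56.8% under DMSO, 60.3% under torin1 and 54.7% under MK-8722, and between the drugs in WT 52.2%.

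**Figure D1:**
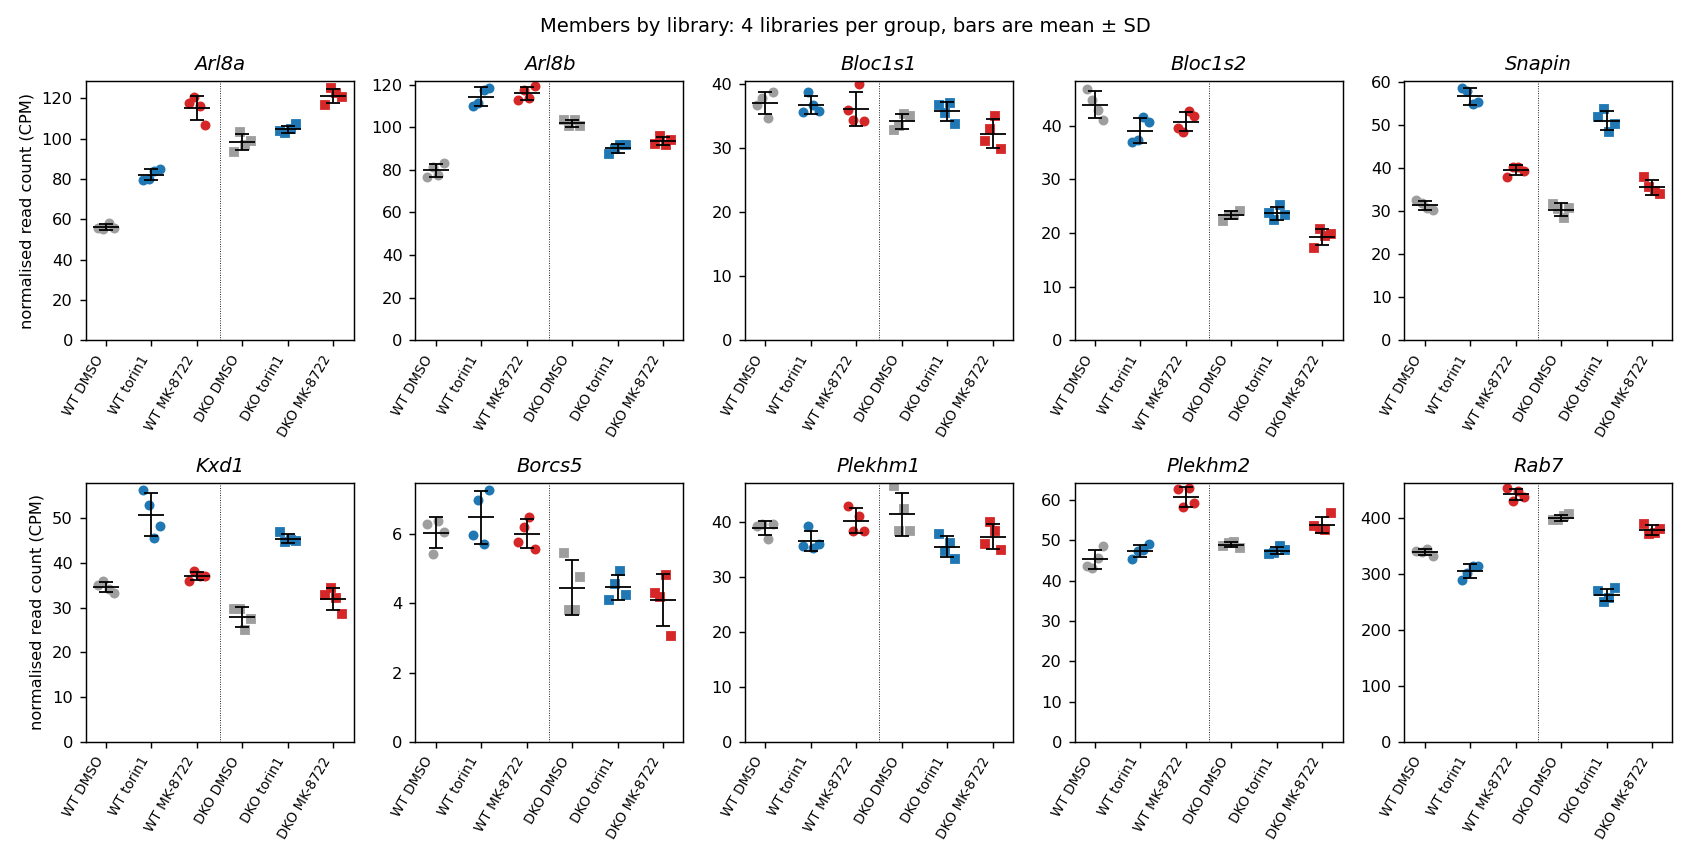
Normalised read count (CPM, linear axis from 0) of each of the 10 genes in all 24 libraries, with WT as circles, DKO as squares, DMSO in grey, torin1 in blue and MK-8722 in red; black bars are the mean ± SD of 4 libraries. *Arl8a* under MK-8722 sits between 107.0 and 120.8 CPM in WT, above all WT DMSO libraries (55.3 to 58.3), and *Bloc1s2* is lower in all 12 DKO libraries than in any WT library.

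In WT MEFs, torin1 raised 4 of the 10 genes, *Arl8a*, *Arl8b*, *Snapin* and *Kxd1*, and lowered 0, beside 26.6% of all genes tested called higher and 20.5% lower. MK-8722 in WT raised 5, *Arl8a*, *Arl8b*, *Snapin*, *Plekhm2* and *Rab7*, and lowered 0, beside 10.3% of all genes called higher and 5.87% lower. The median log2 fold change of the 10 was 0.09 with torin1 (0.05 over all genes) and 0.22 with MK-8722 (-0.02 over all genes). In DKO, torin1 raised 2, *Snapin* and *Kxd1*, and lowered *Rab7*, with 23% of all genes higher and 20.2% lower. With so many of all genes called for torin1, the torin1 counts do not set the members apart in either genotype. MK-8722 in DKO raised *Arl8a* and lowered *Bloc1s2*, with 5.47% of all genes higher and 3.21% lower.

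Whether the response to each drug differed between the DKO and WT lines was tested as the log2 response in DKO minus that in WT. For torin1 this difference was called lower for *Arl8a*, *Arl8b* and *Rab7* and higher for 0 of the 10, beside 6.33% of all genes lower and 4.68% higher. For MK-8722 it was called lower for *Arl8a*, *Arl8b*, *Plekhm2* and *Rab7* and higher for 0, beside 4.08% of all genes lower and 1.42% higher. The median difference over the 10 genes was -0.11 for torin1 (-0.01 over all genes) and -0.18 for MK-8722 (0.01 over all genes). A lower response is a smaller rise, a larger fall or a fall in place of a rise, and the genes differed in which of these they showed.

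**Figure D2:**
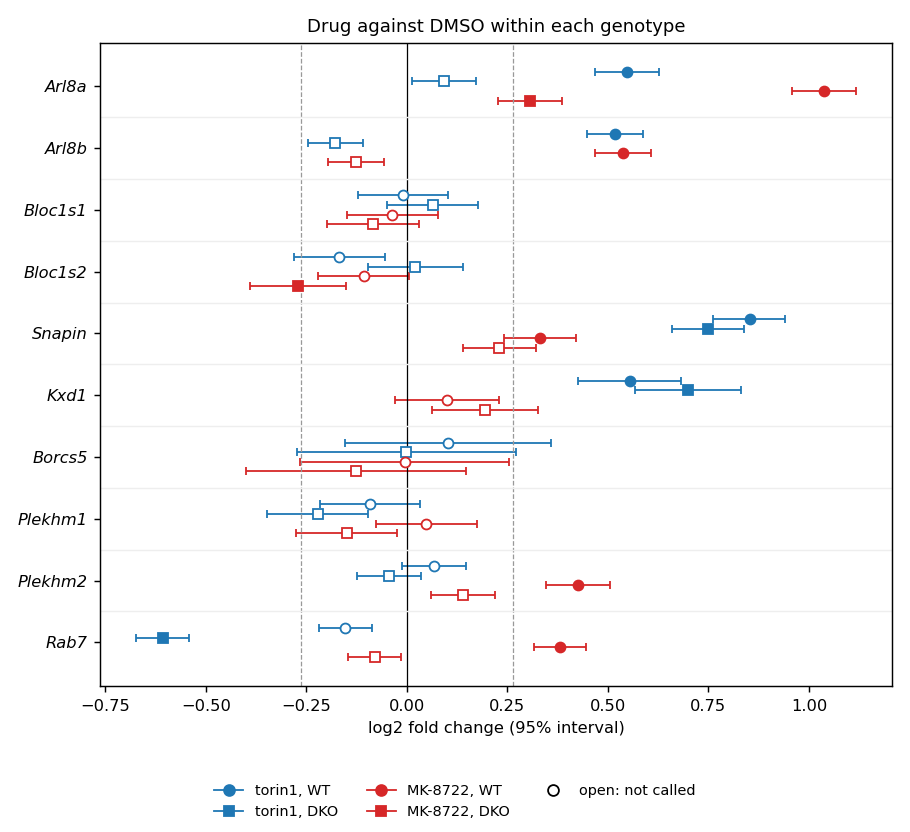
Log2 fold change (x axis) of each gene for torin1 (blue) and MK-8722 (red) against DMSO in WT (circles) and DKO (squares), with 95% intervals; filled symbols were called, open ones were not, and dashed lines mark a fold change of 1.2. *Arl8a* and *Arl8b* are filled and to the right for both drugs in WT, while *Snapin* and *Kxd1* lie to the right with torin1 in both genotypes.

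The upstream sequences of the genes called in both responses are shown because CACGTG, the core of the E-box bound by TFEB and TFE3, lies in the upstream sequence of many lysosomal genes. RefSeq windows on GRCm38.p6 matched 7 of the 10 genes by symbol, in 9 windows of 250 bases before to 50 bases after the transcript start. *Arl8b*, *Snapin* and *Kxd1* had no entry. CACGTG, which reads the same on both strands, was in 7.15% of all 32851 windows, and the longer TCACGTGA, each match of which contains a CACGTG, in 0.974%. Counted by gene, 8.09% of 27025 genes held CACGTG and 1.12% held TCACGTGA. Among the members only *Bloc1s1* held either, with 2 CACGTG whose first bases lie at -19 and -3 from the start, and it was chosen for display after its values were seen. The 250 bases before the start and the first 10 of the transcript follow, 5′ to 3′ on the gene's strand, with CACGTG in capitals or, where there is none, the start base in capital. *Arl8a* is shown at chr1:135146584-135146843 on the plus strand, *Rab7* at chr6:88045261-88045520 on the minus strand, and *Bloc1s1* at chr10:128923515-128923774 on the minus strand.
Arl8a: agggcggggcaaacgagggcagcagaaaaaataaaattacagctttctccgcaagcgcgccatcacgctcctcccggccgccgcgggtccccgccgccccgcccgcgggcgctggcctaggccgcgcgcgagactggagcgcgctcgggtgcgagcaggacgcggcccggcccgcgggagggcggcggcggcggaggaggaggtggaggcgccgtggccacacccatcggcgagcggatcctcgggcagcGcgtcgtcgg
Rab7: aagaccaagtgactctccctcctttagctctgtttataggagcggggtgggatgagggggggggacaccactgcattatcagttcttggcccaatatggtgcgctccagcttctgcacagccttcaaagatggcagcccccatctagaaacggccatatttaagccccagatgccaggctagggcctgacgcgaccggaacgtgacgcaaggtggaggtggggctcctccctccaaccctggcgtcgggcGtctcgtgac
Bloc1s1: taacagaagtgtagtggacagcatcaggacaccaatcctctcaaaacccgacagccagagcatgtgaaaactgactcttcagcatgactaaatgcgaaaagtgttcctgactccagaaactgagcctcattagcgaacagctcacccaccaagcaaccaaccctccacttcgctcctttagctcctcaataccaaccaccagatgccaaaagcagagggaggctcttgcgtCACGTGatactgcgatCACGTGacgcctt
The *Arl8a* window is 76.7% G or C, the *Rab7* window shown 61% and that of *Bloc1s1* 51.7%. A further *Rab7* window, with its transcript start at chr6:88045017, is 73.7% G or C, holds no CACGTG and is not shown.

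*Arl8a* (ENSMUSG00000026426, chr1:135146824-135156269, plus strand, GRCm38) encodes one of the ARL8 GTPases. Under DMSO it stood at 55.3, 55.5, 55.9 and 58.3 CPM in WT. With torin1 the WT libraries gave 79.6, 80.0, 84.0 and 85.1 CPM, and with MK-8722 they gave 107.0, 116.1, 117.8 and 120.8 CPM. The WT groups did not overlap, and every library under either drug was above every DMSO library. The rise was 0.55 log2 with torin1 (SE 0.039, edgeR adjusted p = 3.8e-11) and 1.04 log2 with MK-8722 (SE 0.039, edgeR adjusted p = 9.13e-15). *Arl8a* was the member with the largest log2 fold change to MK-8722 in WT, 2.05-fold, and the torin1 level was lower than the MK-8722 level by 0.49 log2 (-0.49, SE 0.038, edgeR adjusted p = 3.03e-10).

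In DKO, *Arl8a* already stood at 93.6, 97.0, 99.0 and 103.2 CPM under DMSO. Torin1 gave 103.0, 103.8, 104.7 and 107.1 CPM, and MK-8722 gave 116.7, 120.8, 122.8 and 125.1 CPM. The torin1 libraries overlapped the DMSO libraries, and the MK-8722 libraries were above both. The change in DKO was 0.09 log2 with torin1 (SE 0.038, edgeR adjusted p = 0.044), under the fold change of 1.2 and not called. With MK-8722 it was 0.31 log2 (SE 0.038, edgeR adjusted p = 1.07e-05), called but not in the test against a fold change of 1.2 (adjusted p = 0.743). The response in DKO was smaller than in WT by 0.46 log2 for torin1 (-0.46, SE 0.054, edgeR adjusted p = 2.88e-06) and by 0.73 log2 for MK-8722 (-0.73, SE 0.054, edgeR adjusted p = 2.45e-09). The untreated level differed in the other direction, with DKO above WT by 0.80 log2 under DMSO (SE 0.039, edgeR adjusted p = 3.49e-14). Under torin1 DKO remained higher by 0.35 log2 (SE 0.038), which was 0.22 and not called when libraries were scaled by library size alone. Under MK-8722 the genotypes differed by 0.07 log2 (95% interval -0.01 to 0.15) and overlapped, and *Arl8a* was thus high in DKO before treatment and close to the WT level under MK-8722.

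*Arl8b* (ENSMUSG00000030105, chr6:108783099-108825278, plus strand) encodes the paralogous ARL8 GTPase. In WT it stood at 76.9, 77.8, 81.4 and 83.5 CPM under DMSO. It reached 109.8, 111.5, 117.7 and 118.6 CPM with torin1 and 112.6, 114.0, 117.5 and 119.6 CPM with MK-8722. Both drugs thus brought *Arl8b* to overlapping levels, unlike *Arl8a*. The rise was 0.52 log2 with torin1 (SE 0.033, edgeR adjusted p = 9.39e-12) and 0.54 log2 with MK-8722 (SE 0.033, edgeR adjusted p = 2.79e-11), and the drugs differed by -0.02 log2 (95% interval -0.09 to 0.05).

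In DKO, *Arl8b* moved the other way in every library. It stood at 100.5, 100.7, 103.3 and 103.5 CPM under DMSO, at 87.4, 90.1, 91.6 and 91.7 CPM with torin1, and at 91.8, 92.3, 94.1 and 95.7 CPM with MK-8722. All drug libraries were below all DMSO libraries, by -0.18 log2 with torin1 (SE 0.033, edgeR adjusted p = 8.09e-05) and -0.13 log2 with MK-8722 (SE 0.033, edgeR adjusted p = 0.00915), both under the fold change of 1.2 and not called. The response was lower in DKO than in WT by 0.70 log2 for torin1 (-0.70, SE 0.047, edgeR adjusted p = 7.06e-10) and by 0.66 log2 for MK-8722 (-0.66, SE 0.047, edgeR adjusted p = 1.47e-09). The genotype difference changed sign with treatment. *Arl8b* was higher in DKO under DMSO (0.35 log2, SE 0.033, edgeR adjusted p = 3.91e-09) and lower in DKO under torin1 (-0.34, SE 0.033, edgeR adjusted p = 4.94e-09) and under MK-8722 (-0.31, SE 0.033, edgeR adjusted p = 2.81e-08). The last call was lost in the test against a fold change of 1.2 (adjusted p = 0.0662).

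Per length, *Arl8a* was the more abundant paralog in every group. The ratio of *Arl8a* to *Arl8b* in TPM was 1.32 ± 0.0907 in WT under DMSO (SD, n = 4), 1.31 ± 0.0392 with torin1 and 1.78 ± 0.139 with MK-8722. In DKO it was 1.76 ± 0.118 under DMSO, 2.07 ± 0.0494 with torin1 and 2.33 ± 0.0699 with MK-8722. The ratios of WT under DMSO and torin1 overlapped, as did those of WT under MK-8722 and DKO under DMSO, and the lowest ratio in a DKO drug library (2.02) was above the highest in any WT library (1.89). The summed level of the pair rose from 99.7 ± 1.23 TPM in WT under DMSO to 156 ± 5.53 with torin1 and 186 ± 7.6 with MK-8722. In DKO the sum was 152 ± 2.04 TPM under DMSO, 159 ± 3.47 with torin1 and 174 ± 6.37 with MK-8722, a narrower range than in WT.

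Transcript shares, estimated by salmon, moved little for the pair. The 1713-base *Arl8a* transcript ENSMUST00000027684 made 76.4% of the gene's TPM in WT under DMSO, 72.9% with torin1, 75.5% in DKO under DMSO and 76.7% in DKO with torin1. *Arl8b* was split between the 4443-base ENSMUST00000032196 (59.3%, 57%, 57.1% and 55.7% in the same groups) and the 695-base ENSMUST00000204483. The per-library shares overlapped between these groups for both genes.

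**Figure D3:**
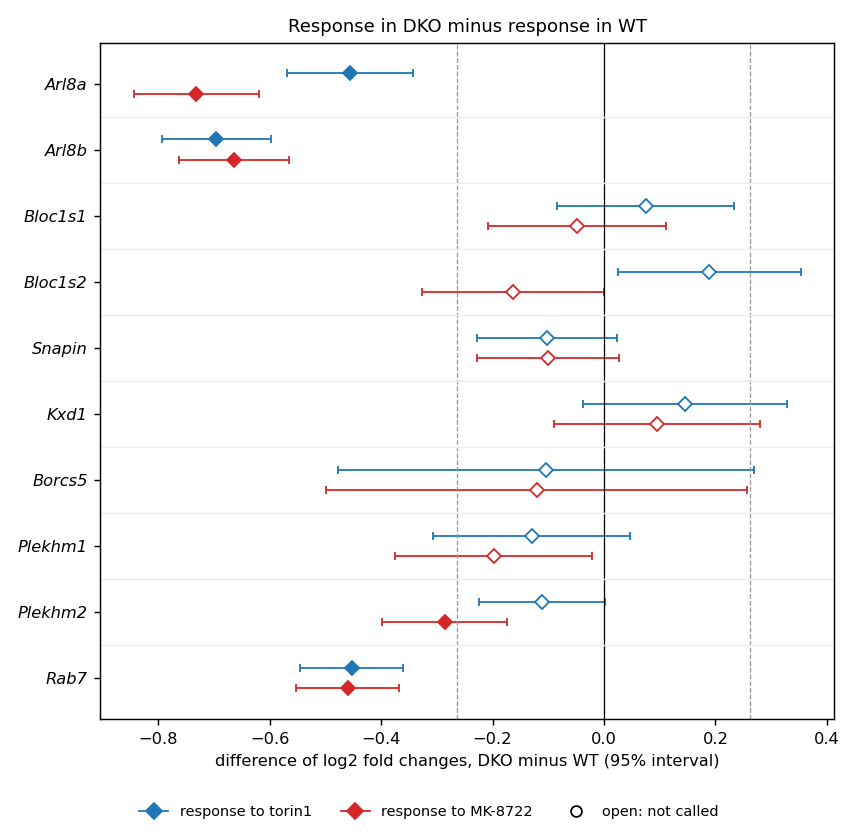
Difference of the log2 response, DKO minus WT (x axis), of each gene for torin1 (blue) and MK-8722 (red), with 95% intervals; filled symbols were called and dashed lines mark a fold change of 1.2. *Arl8a*, *Arl8b* and *Rab7* lie to the left of the dashed line for both drugs, *Plekhm2* for MK-8722, and the 5 BORC subunits are open for both.

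Of the 5 BORC subunits in the set, 0 were called in either response comparison. *Snapin* (ENSMUSG00000001018, chr3:90488026-90491033, minus strand), a subunit that BORC shares with the related complex BLOC-1, rose with torin1 in both genotypes. It went from 30.3, 30.7, 31.8 and 32.6 CPM to 54.7, 55.3, 57.8 and 58.7 CPM in WT. In DKO it went from 28.3, 30.5, 30.8 and 31.7 CPM to 48.3, 50.2, 51.9 and 53.6 CPM. Neither pair of groups overlapped, and the rise was 0.85 log2 in WT (SE 0.043, edgeR adjusted p = 1.9e-13) and 0.75 log2 in DKO (SE 0.043, edgeR adjusted p = 1.95e-12). The difference between these rises was -0.10 log2 (95% interval -0.23 to 0.02, edgeR adjusted p = 0.297).

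With MK-8722 *Snapin* rose less, to 37.8, 39.4, 40.2 and 40.3 CPM in WT (0.33 log2, SE 0.043, edgeR adjusted p = 3.43e-06) and to 34.0, 34.6, 35.6 and 38.0 CPM in DKO (0.23 log2, SE 0.044, under the fold change of 1.2 and not called). The WT call was lost in the test against a fold change of 1.2 (adjusted p = 0.209). Torin1 exceeded MK-8722 in WT by 0.52 log2 (SE 0.043, edgeR adjusted p = 6.41e-10). Between genotypes, DKO against WT was -0.15 log2 under torin1 (edgeR adjusted p = 0.00342) and -0.15 under MK-8722 (edgeR adjusted p = 0.00456), neither called. Reads of *Snapin* can be confused with those of *Ilf2*, which covers 354 of its 2290 exon bases on the opposite strand, and *Ilf2* moved the other way with torin1 in WT (-0.39 log2). The transcript ENSMUST00000184877, which shares 7 bases with *Ilf2*, went from 9.64 to 19.9 TPM with torin1 in WT and from 9.47 to 17.7 TPM in DKO.

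*Kxd1* (ENSMUSG00000055553, chr8:70508272-70527956, minus strand), a further BORC subunit, followed torin1 in both genotypes as well. WT libraries went from 33.2, 34.1, 35.1 and 36.0 CPM under DMSO to 45.5, 48.3, 52.9 and 56.4 CPM. DKO libraries went from 25.0, 27.4, 29.6 and 29.8 CPM to 44.8, 44.8, 45.1 and 47.0 CPM. Again no torin1 library overlapped a DMSO library. The rise was 0.55 log2 in WT (SE 0.062, edgeR adjusted p = 6.91e-08) and 0.70 log2 in DKO (SE 0.063, edgeR adjusted p = 2.52e-09), with a difference of 0.15 log2 (95% interval -0.04 to 0.33, edgeR adjusted p = 0.309). In WT the torin1 level was above the MK-8722 level by 0.45 log2 (SE 0.062, edgeR adjusted p = 1.52e-06).

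MK-8722 gave *Kxd1* 36.1 to 38.1 CPM in WT (0.10 log2, 95% interval -0.03 to 0.23) and 28.5 to 34.4 CPM in DKO (0.20 log2, SE 0.064, edgeR adjusted p = 0.0318), neither called, and without the DKO libraries of passage 8 the DKO value was 0.27 and called. *Kxd1* was lower in DKO under DMSO (-0.31 log2, SE 0.063, edgeR adjusted p = 0.000198), a call that was lost without DKO DMSO replicate 3 (-0.26) and in the test against a fold change of 1.2 (adjusted p = 0.207). DKO against WT was -0.16 log2 under torin1 (edgeR adjusted p = 0.0254) and -0.21 under MK-8722 (edgeR adjusted p = 0.00546), neither called. *Kxd1* shares 224 of its 3176 exon bases with *Fkbp8*, a gene on the opposite strand at a mean of 227 TPM, so its count is uncertain. *Fkbp8* itself stood at -0.22 log2 with torin1 in WT (95% interval -0.28 to -0.16) and was not called. The *Kxd1* transcript ENSMUST00000093456, which shares 0 bases with *Fkbp8*, went from 22.1 to 35.4 TPM with torin1 in WT and from 16.2 to 32.9 TPM in DKO, and ENSMUST00000118850, also with 0, from 14.1 to 24.9 and from 11.4 to 22.2 TPM. ENSMUST00000138260, which shares 224 of its 917 bases with *Fkbp8*, went from 12.1% to 7.2% of the *Kxd1* TPM in WT and from 12.6% to 6.45% in DKO. The transcripts were compared with *Fkbp8* alone, so their values do not show that the rise is free of shared reads.

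*Bloc1s2* (ENSMUSG00000057506, chr19:44139246-44146446, minus strand), a subunit of both BORC and BLOC-1, differed between genotypes whatever the treatment. Under DMSO it stood at 41.1, 42.8, 44.8 and 46.8 CPM in WT and at 22.3, 23.3, 23.4 and 24.1 CPM in DKO. With torin1 it stood at 36.9, 37.2, 40.7 and 41.5 CPM in WT and at 22.4, 23.3, 23.7 and 25.2 CPM in DKO. With MK-8722 it stood at 38.9, 39.6, 41.8 and 42.7 CPM in WT and at 17.3, 19.4, 19.8 and 20.7 CPM in DKO. No DKO library reached the lowest WT library. DKO was lower by 0.92 log2 under DMSO (-0.92, SE 0.056, edgeR adjusted p = 2.35e-12), by 0.73 under torin1 (-0.73, SE 0.056, edgeR adjusted p = 1e-10) and by 1.08 under MK-8722 (-1.08, SE 0.057, edgeR adjusted p = 1.56e-13).

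The drugs themselves changed *Bloc1s2* less. In WT torin1 gave -0.17 log2 (SE 0.054, edgeR adjusted p = 0.0105) and MK-8722 -0.11 (95% interval -0.22 to 0.01), and in DKO torin1 gave 0.02 (95% interval -0.10 to 0.14), none of them called. In DKO MK-8722 lowered it by 0.27 log2 (-0.27, SE 0.057, edgeR adjusted p = 0.00177). That value was just past the fold change of 1.2, and the call was lost without DKO DMSO replicate 4 (-0.25) or DKO MK-8722 replicate 1 (-0.22), with library size alone (-0.26), with an offset for transcript length (-0.26) and in the test against a fold change of 1.2.

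*Borcs5* (ENSMUSG00000042992, chr6:134639510-134711187, plus strand) encodes the lipid-modified subunit that anchors BORC to the lysosome and was the least abundant member, at 5.84 TPM on average over 24 libraries. Its libraries ran from 5.42 to 6.38 CPM in WT under DMSO, 5.71 to 7.27 with torin1 and 5.57 to 6.49 with MK-8722. In DKO they ran from 3.80 to 5.45 CPM under DMSO, 4.11 to 4.92 with torin1 and 3.05 to 4.83 with MK-8722. DKO was lower in all 3 treatments, by -0.43 log2 under DMSO (SE 0.128, edgeR adjusted p = 0.00521, with overlap), -0.54 under torin1 (SE 0.127, edgeR adjusted p = 0.000734) and -0.56 under MK-8722 (SE 0.129, edgeR adjusted p = 0.000695). The DMSO call was lost in the test against a fold change of 1.2 (adjusted p = 0.0795). At this level the drug effects in either genotype had 95% intervals from -0.16 to 0.36 (torin1 in WT) to -0.40 to 0.15 (MK-8722 in DKO), which include a change of 1.2-fold, so such a change could not be told from none.

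*Bloc1s1* (ENSMUSG00000090247, chr10:128917882-128924035, minus strand), which also belongs to BORC and BLOC-1, stayed between 29.9 and 39.9 CPM in all 24 libraries. Its drug effects ranged from -0.08 log2 (MK-8722 in DKO, 95% interval -0.20 to 0.03) to 0.06 (torin1 in DKO, 95% interval -0.05 to 0.18). DKO was below WT by -0.16 log2 under MK-8722 (SE 0.054, edgeR adjusted p = 0.0117), not called. The value is uncertain because 720 of its 1288 exon bases lie on the same strand as exons of *Rdh5*, a gene at a mean of 4.74 TPM, beside 138 TPM for *Bloc1s1*.

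The remaining BORC subunits, *Borcs6*, *Borcs7* and *Borcs8*, were measured beside the members. None of the 3 was called in either response, but with library size alone *Borcs7* was called for torin1 (-0.32 log2, adjusted p = 0.0443). *Borcs7* resembled *Bloc1s2* in lying lower in DKO under every treatment, from 8.28 to 9.44 CPM in WT to 3.73 to 4.18 CPM in DKO under DMSO (-1.13 log2, SE 0.073), and by -1.40 under torin1 (SE 0.072) and -1.16 under MK-8722 (SE 0.072). It rose with torin1 in WT to 10.4 to 12.2 CPM (0.39 log2, SE 0.067, edgeR adjusted p = 2.69e-05), and in DKO its change was 0.13 log2 (95% interval -0.03 to 0.29). *Borcs6* was higher in DKO under torin1 (0.37 log2, SE 0.072, edgeR adjusted p = 0.000111). That call was lost with library size alone (0.24) and in the test against a fold change of 1.2 (adjusted p = 0.0594). *Borcs8*, between 16.5 and 24.5 CPM, was called in none of the 10 comparisons.

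Of the adaptors, *Plekhm2* (ENSMUSG00000028917, chr4:141625734-141664899, minus strand), the link from ARL8 to kinesin, rose with MK-8722 in WT. It stood at 43.2, 43.7, 45.6 and 48.5 CPM under DMSO, at 45.4, 47.4, 47.6 and 49.1 CPM with torin1 and at 58.2, 59.2, 62.7 and 63.1 CPM with MK-8722. In WT only the MK-8722 libraries stood clear of DMSO (0.43 log2, SE 0.038, edgeR adjusted p = 1.32e-08), and torin1 gave 0.07 log2 (95% interval -0.01 to 0.15). Torin1 was below MK-8722 by -0.36 log2 (SE 0.038, edgeR adjusted p = 4.15e-08).

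In DKO, *Plekhm2* stood at 48.2, 48.5, 49.3 and 49.6 CPM under DMSO, at 46.6, 46.9, 47.6 and 48.6 CPM with torin1 and at 52.4, 52.7, 53.6 and 56.7 CPM with MK-8722. All MK-8722 libraries were still above all DMSO libraries, by 0.14 log2 (SE 0.039, edgeR adjusted p = 0.0119), under the fold change of 1.2. The response to MK-8722 was smaller in DKO by 0.29 log2 (-0.29, SE 0.054, edgeR adjusted p = 0.00126). This call was lost without WT MK-8722 replicate 1 (-0.25) and in the test against a fold change of 1.2 (adjusted p = 1). The response to torin1 differed by -0.11 log2 (95% interval -0.23 to 0.00). Under MK-8722, DKO against WT was -0.17 log2 (SE 0.038, edgeR adjusted p = 0.000397), without overlap but not called.

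*Plekhm1* (ENSMUSG00000034247, chr11:103364275-103412687, minus strand), the adaptor that binds both RAB7 and ARL8, was called in none of the 10 comparisons. Its medians over libraries were 39.6, 35.8 and 39.9 CPM in WT under DMSO, torin1 and MK-8722, and 40.5, 35.5 and 37.2 CPM in DKO. DKO libraries under torin1 (33.3 to 38.0 CPM) lay below all DKO DMSO libraries (38.4 to 46.6), by -0.22 log2 (SE 0.061, edgeR adjusted p = 0.00323), under the fold change of 1.2. In WT the torin1 value was -0.09 (95% interval -0.22 to 0.03), and the responses differed by -0.13 (95% interval -0.31 to 0.05).

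*Rab7* (ENSMUSG00000079477, chr6:87999106-88045270, minus strand) was the most abundant member, at 405 TPM on average, followed by *Bloc1s1* (138 TPM) and *Arl8a* (98.4 TPM). In WT it stood at 332.2, 340.2, 342.2 and 345.7 CPM under DMSO. Torin1 gave 290.3, 302.9, 314.3 and 315.2 CPM, and MK-8722 gave 430.6, 437.6, 449.0 and 453.4 CPM. The MK-8722 libraries lay above and the torin1 libraries below those under DMSO, without overlap. MK-8722 raised it by 0.38 log2 (SE 0.032, edgeR adjusted p = 3.8e-09), and torin1 gave -0.15 log2 (SE 0.032, edgeR adjusted p = 0.000213), under the fold change of 1.2 and not called, and -0.06 with library size alone. The torin1 level was below the MK-8722 level by -0.53 log2 (SE 0.032, edgeR adjusted p = 3.89e-12).

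In DKO, *Rab7* stood at 396.0, 396.4, 403.8 and 406.9 CPM under DMSO. Torin1 gave 251.0, 257.1, 269.7 and 274.8 CPM, and MK-8722 gave 371.2, 374.0, 380.8 and 390.5 CPM. Every drug library was below every DMSO library. Torin1 lowered *Rab7* by 0.61 log2 in DKO (-0.61, SE 0.032, edgeR adjusted p = 4.27e-13), a larger fall than in WT, and MK-8722 gave -0.08 log2 (SE 0.032, edgeR adjusted p = 0.0769) in place of the rise seen in WT. The responses differed between genotypes by -0.45 log2 for torin1 (SE 0.045, edgeR adjusted p = 2.14e-07) and by -0.46 for MK-8722 (SE 0.045, edgeR adjusted p = 1.57e-07).

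The level of *Rab7* in DKO relative to WT changed sign with treatment as that of *Arl8b* did. It was 0.24 log2 under DMSO (SE 0.032), -0.22 under torin1 (SE 0.032) and -0.22 under MK-8722 (SE 0.032), with edgeR adjusted p of 8.12e-07, 2.68e-06 and 1.82e-06. The groups did not overlap in any treatment, but each difference was under the fold change of 1.2, so none was called. With library size alone those under torin1 and MK-8722 were called (-0.34 and -0.30). Among the *Rab7* transcripts, the 550-base ENSMUST00000204126 went from 10.1 ± 1.4 TPM under DMSO to 15.4 ± 2.39 TPM with torin1 in DKO (SD, n = 4), while the 2159-base ENSMUST00000113600 went from 136 ± 4.98 to 90.5 ± 5.37 TPM. The share of the shorter one in DKO was 1.9 to 2.66% under DMSO and 3.94 to 5.97% with torin1, without overlap, and 1.9 to 2.49% and 2.39 to 3.65% in WT, with overlap. With MK-8722 its share was 2.91 to 4.06% in DKO, also above DMSO without overlap, and 2.3 to 3.14% in WT, with overlap. *Rab7* had 6 transcripts that made 5% or more of its TPM in some group. The 550-base and 2159-base ones were picked from them without a rule. How often transcript shares of all genes lacked overlap was not computed. An antisense gene, *Gm5577* (2.68 TPM), covers 204 of the 2610 exon bases of *Rab7*.

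**Figure D4:**
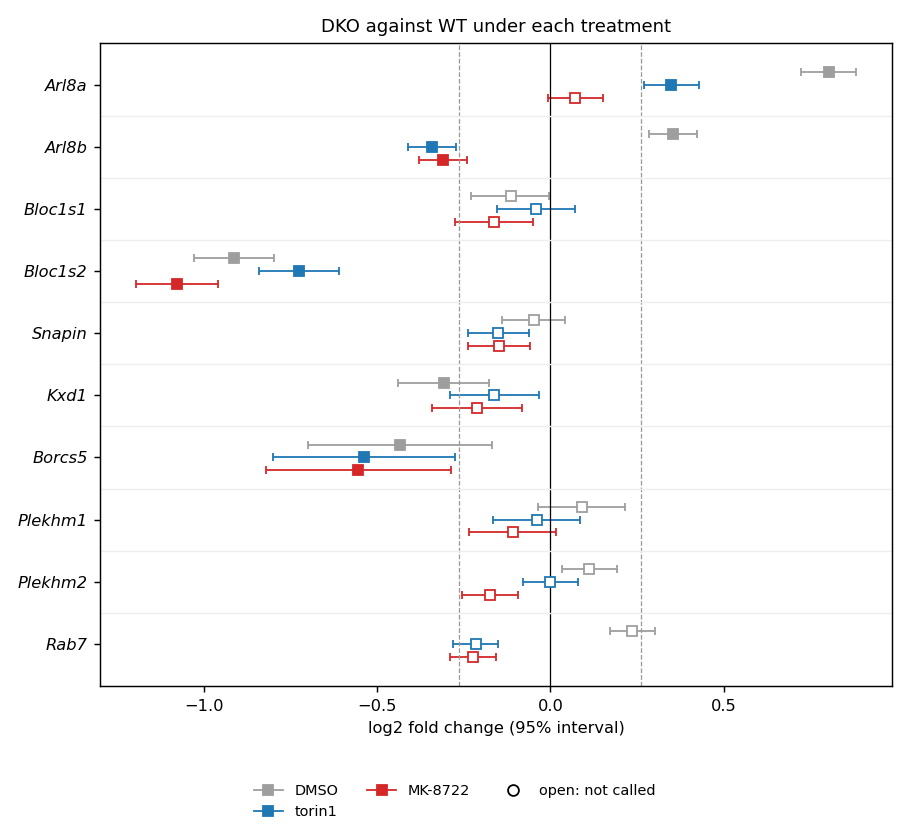
Log2 fold change of DKO against WT (x axis) of each gene under DMSO (grey), torin1 (blue) and MK-8722 (red), with 95% intervals; filled symbols were called and dashed lines mark a fold change of 1.2. *Arl8b* lies right of 0 under DMSO and left of it under both drugs, *Rab7* does so with open symbols, and *Bloc1s2* and *Borcs5* lie left of the dashed line under all 3 treatments.

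Levels can be compared between the genes only per length. Over the 24 libraries they ran from 2.95 to 8.18 TPM for *Borcs5*, 9.88 to 13.6 for *Plekhm1*, 20.1 to 32.8 for *Plekhm2*, 28.1 to 65.5 for *Snapin*, 40.3 to 71.3 for *Arl8b*, 40.5 to 102.9 for *Kxd1* and 37.2 to 100.5 for *Bloc1s2*. *Arl8a* ran from 54.9 to 127.4 TPM, *Bloc1s1* from 114 to 160 and *Rab7* from 285 to 527. The ranges of *Borcs5*, *Plekhm1* and *Rab7* overlapped with no other gene, while those of the other 7 each overlapped with a neighbour.

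Counted by comparison, DKO against WT under DMSO had 2 of the 10 genes higher (*Arl8a*, *Arl8b*) and 3 lower (*Bloc1s2*, *Kxd1*, *Borcs5*), beside 23.5% of all genes higher and 24.6% lower. Under torin1 *Arl8a* was higher and *Arl8b*, *Bloc1s2* and *Borcs5* were lower, beside 24% and 27.8%. Under MK-8722, 0 were higher and *Arl8b*, *Bloc1s2* and *Borcs5* were lower, beside 23.3% and 25.4%. Torin1 against MK-8722 in WT had *Snapin* and *Kxd1* higher and *Arl8a*, *Plekhm2* and *Rab7* lower, beside 24.9% and 20% of all genes. With so many of all genes called in each direction, the counts of members in these 4 comparisons do not set them apart. Since these are bulk mRNA levels, fewer cells of a kind and less mRNA per cell cannot be told apart.

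The genes whose log2 CPM over the 24 libraries was most like that of *Arl8a* were *Steap3* and *Fnip2* (Pearson r = 0.956 for both). For *Arl8b* they were *Fuca2* (r = 0.936) and *Gga2* (r = 0.935), and for *Rab7* they were *Atp6v0e*, a subunit of the lysosomal proton pump (r = 0.958), and *Mlx*, a transcription factor (r = 0.951). These are descriptions over points that share treatment, genotype and normalisation. The genes named were those with the highest r of all genes tested, so lower values between members follow from that choice. Between members, r was 0.474 for *Arl8a* and *Arl8b*, 0.283 for *Arl8a* and *Rab7* and 0.352 for *Arl8b* and *Rab7*. *Rab7* ran against *Kxd1* (r = -0.689) and *Snapin* (r = -0.646) and with *Plekhm2* (r = 0.687) and *Plekhm1* (r = 0.59). *Arl8a* ran with *Plekhm2* (r = 0.69) and against *Bloc1s2* (r = -0.618), and *Arl8b* with *Plekhm2* (r = 0.551).

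Partner genes of the same transport steps came from lists of names. With 26.6% of all genes tested called higher and 20.5% lower for torin1 in WT, the torin1 counts below do not set these lists apart. Of the 5 subunits of BLOC-1 alone, torin1 in WT raised 1 and lowered 1, MK-8722 in WT raised 2 and lowered 0 (10.3% and 5.87% of all genes), and 1, *Dtnbp1*, had a lower response in DKO to each drug (-0.54 log2 for torin1 and -0.61 for MK-8722), beside 6.33% and 4.08% of all genes. Like *Rab7*, *Dtnbp1* rose with MK-8722 in WT (0.50 log2, SE 0.047) and fell with torin1 in DKO (-0.54 log2, SE 0.048).

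Of 10 genes of kinesin and outward transport 9 were tested, and *Kif1a* was not. Torin1 in WT raised 4 and lowered 3 (26.6% and 20.5% of all genes), and MK-8722 in WT raised 3 and lowered 0 (10.3% and 5.87%). In the responses torin1 had 1 higher and 1 lower (median -0.04 log2, beside 4.68% and 6.33% of all genes) and MK-8722 0 of either (median -0.07 log2, beside 1.42% and 4.08%). The adaptor genes *Fyco1* and *Zfyve27* were called higher with both drugs in both genotypes.

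Of 14 genes of dynein and inward transport, torin1 raised 5 in WT and lowered 2, near the 26.6% and 20.5% of all genes, and MK-8722 raised 6 and lowered 0, beside 10.3% and 5.87%. In the response to torin1 3 were lower and 1 higher (median 0.05 log2, beside 6.33% and 4.68% of all genes), and in that to MK-8722 4 were lower and 0 higher (median -0.05 log2, beside 4.08% and 1.42%). *Mcoln1*, the lysosomal calcium channel, rose in WT by 1.42 log2 with torin1 and 1.29 with MK-8722, and its responses were lower in DKO by -0.85 (SE 0.086, edgeR adjusted p = 2.77e-07) and -0.92 (SE 0.086, edgeR adjusted p = 8.27e-08). *Mcoln1* still rose in DKO, by 0.57 log2 with torin1 and 0.37 with MK-8722, both called. The MK-8722 call in DKO was lost in the test against a fold change of 1.2 (adjusted p = 0.395). *Pip4p1*, which brings a dynein adaptor to lysosomes, differed by -0.75 (SE 0.089, edgeR adjusted p = 2.88e-06) and -0.89 (SE 0.089, edgeR adjusted p = 2.27e-07). *Osbpl1a*, a cholesterol sensor that acts with RAB7, differed by -0.75 (SE 0.093, edgeR adjusted p = 4.84e-06) and -0.54 (SE 0.094, edgeR adjusted p = 0.00052). In DKO *Osbpl1a* was still called higher with torin1 (0.59 log2) but not with MK-8722 (0.165). *Pip4p1* was called with neither drug in DKO (0.125 log2 with torin1 and 0.161 with MK-8722).

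Of 14 RAB7 regulators and effectors, torin1 raised 5 in WT and lowered 2, also near the 26.6% and 20.5% of all genes, and MK-8722 raised 4 and lowered 0, beside 10.3% and 5.87%. In the response to torin1 3 were lower (*Tbc1d5*, *Chm* and *Rilpl1*) and 0 higher, and in that to MK-8722 1 was lower (*Chm*) and 0 higher, with medians of -0.05 and -0.11 log2, beside 6.33% and 4.08% of all genes lower. *Chm* encodes the escort protein that presents RAB proteins for lipid attachment. It rose in WT by 0.40 log2 with torin1 and 0.42 with MK-8722, and its responses were lower in DKO by -0.35 (SE 0.083, edgeR adjusted p = 0.00565) and -0.37 (SE 0.083, edgeR adjusted p = 0.0063). Both *Chm* calls were lost with an offset for transcript length (-0.21 and -0.34 log2, adjusted p = 0.471 and 0.308) and in the test against a fold change of 1.2.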

How the data were processed

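mRNA of 24 libraries (6 groups of 4) was sequenced as pairs of 52 bp. The authors ran an nf-core workflow with STAR and salmon on GRCm38, considering molecular identifiers, and deposited salmon's estimated counts per gene and, per transcript, estimated counts, TPM (relative levels per length) and effective lengths. Whether the counting used strand is not given in the sources used here.

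Estimated gene counts were rounded and tested with edgeR 4.0.16 (R 4.3.3), fitting 1 mean per group, with TMM normalisation, a minimum count of 10 (filterByExpr) and the quasi-likelihood method in its edgeR 3 form. Of 31829 genes with a count, 15401 were tested in 10 contrasts, and p-values were Benjamini-Hochberg adjusted over them. The thresholds are those of the study's methods. Its batch removal was not repeated, because the labels give 1 batch. The biological coefficient of variation was 10.7% with 18 residual degrees of freedom. In simulated data for torin1 against DMSO in WT, 141 of 196 changed and 9 unchanged genes were called among 15009 tested. Replicates differed beyond sampling noise (chi-square per degree of freedom 3.8 to 39.2). Coordinates are from GENCODE M21 on GRCm38, and promoter sequences from RefSeq GRCm38.p6.

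The alternatives were DESeq2 1.42.0 (size factors, Wald test), limma 3.58.1 (voom), library size alone, 2 filters, edgeR 4's own form, adjusted p alone, glmTreat, a transcript length offset, the compared groups alone, replicate number or passage as a block, and leaving out libraries. The members and lists were chosen with earlier results of these data known. Other genes were named by a rule, which took *Tfeb*, *Tfe3*, *Borcs6*, *Borcs7* and *Borcs8* always, up to 4 genes per list that were called in both responses, and the 2 genes most correlated with each member called in both. *Fyco1*, *Zfyve27*, *Kif1a*, *Tbc1d5*, *Rilpl1* and the genes that share bases with members were named outside it, after their values were seen. One further overlap of *Kxd1* is not reported here.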

Additional observations from a re-analysis of the deposited data

Results flagged for a closer look

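The log2 response in DKO minus that in WT passed edgeR's test of the difference itself for 4 genes. For *Arl8a* it was -0.455 with torin1 and -0.732 with MK-8722, for *Arl8b* -0.696 and -0.664, for *Rab7* -0.453 and -0.46, and for *Plekhm2* -0.286 with MK-8722. Both comparisons use the same DMSO libraries. Under DMSO, DKO against WT was 0.80 log2 for *Arl8a* and 0.35 for *Arl8b*, both called, and 0.24 for *Rab7* and 0.11 for *Plekhm2*, not called. The part of these DMSO levels in the differences was not tested.

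Single libraries stood apart from the other 3 of their group in 2 of 60 sets of 4 libraries, where chance flags about 1 in 20. *Kxd1* was at 47.0 CPM in DKO torin1 replicate 1, beside 44.8 to 45.1 CPM in the others. *Plekhm1* was at 37.0 CPM in WT DMSO replicate 3, beside 39.4 to 39.8 CPM in the others.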

How the results depend on the processing

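Among the counts of members called, those for both drugs in WT, both responses and torin1 against MK-8722 stayed within 1.5 times under all 39 alternatives. With adjusted p alone, 6 in place of 3 members were called for torin1 in DKO, 6 in place of 2 for MK-8722 in DKO, 7 in place of 4 for DKO against WT under torin1 and 8 in place of 3 under MK-8722, since fold changes under 1.2 then count. In the test against a fold change of 1.2, 0 were called for MK-8722 in DKO and 3 in place of 5 for DKO against WT under DMSO. For MK-8722 in DKO, library size alone and the length offset each left 1, and leaving out 1 library gave 1 to 2. Library size alone called 5 in DKO against WT under MK-8722, adding *Kxd1* (-0.29) and *Rab7* (-0.30), and under torin1 it added *Snapin* (-0.28), *Kxd1* (-0.29) and *Rab7* (-0.34) and lost *Arl8a* (0.22). It moved the median of all genes there from -0.04 to -0.16, and the genes called higher and lower from 3692 and 4283 to 2629 and 5623. It also moved those for torin1 in WT from 4100 and 3153 to 5021 and 2337, for the response to torin1 from 721 and 975 to 472 and 1306, and for torin1 against MK-8722 from 3833 and 3083 to 4621 and 2345. Without WT passage 11 the response to torin1 had 1051 higher and 749 lower over all genes, and without DKO passage 8 the members called for MK-8722 in DKO were 3, with *Kxd1* (0.27) added. Over all genes, the calls higher and lower for MK-8722 in WT were 1583 and 904, 2432 and 2343 with adjusted p alone and 766 and 190 in the test against a fold change of 1.2. For MK-8722 in DKO they were 843 and 495, 1619 and 1579, and 141 and 33. In that test the response to torin1 had 141 and 313 and that to MK-8722 19 and 254, and the passage block gave the latter 486 and 906 in place of 218 and 628. No call changed direction. The deviations of same-numbered libraries of different groups had a median r of 0.044 (13 of 60 pairs over 0.1), and the replicate block changed no member's call, with 3 and 4 members lower in the responses and 2 called for MK-8722 in DKO. Libraries of 1 genotype and passage under different treatments deviated together more often (median r = 0.157, 17 of 24 pairs over 0.1) than those of different passages (median -0.039, 7 of 72), so passage paired them in part, and the passage block changed no member's call. *Borcs5*, with the lowest counts, had the widest intervals.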
